A study of Mus musculus with 15 samples.

Results

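Pde2a and 8 further cyclic nucleotide phosphodiesterase genes, Pde1b, Pde3b, Pde4a, Pde4b, Pde4d, Pde7a, Pde8a and Pde10a, were followed in adult mouse microglia after deletion of Tgfbr2, the TGFβ type II receptor. The 9 genes were chosen by gene symbol, and each had 1 transcript cluster (the probes of 1 gene, summarised as 1 value) among 32471 clusters with a symbol, which cover 30971 symbols. Pde2a was chosen from its low signal in Cre/+ TAM mice relative to wt TAM mice, so its values in that comparison are a description and carry no test. The other 8 were chosen with earlier results of these data known. The question was whether the lower Pde2a signal stood beside a change in other phosphodiesterases.

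Phosphodiesterases hydrolyse the second messengers cAMP and cGMP, which adenylyl and guanylyl cyclases make, and so set how long a cyclic nucleotide signal lasts. Pde2a degrades both messengers and is stimulated by cGMP, which lets a rise in cGMP lower cAMP. Pde1b is activated by calcium and calmodulin, Pde3b is inhibited by cGMP, the Pde4, Pde7 and Pde8 enzymes act on cAMP, and Pde10a acts on both messengers. In microglia and other macrophages a high cAMP level is known to dampen the response to inflammatory stimuli.

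The mice were C57BL/6 and carried loxP-flanked Tgfbr2 alleles (Tgfbr2 fl/fl) with the R26-yfp reporter. Cre/+ TAM mice (n = 6) carried 1 copy of Cx3cr1CreERT2, a tamoxifen-dependent recombinase expressed from the Cx3cr1 gene of microglia and other macrophages, and received tamoxifen, which removes Tgfbr2 exons 2 and 3. wt TAM mice (n = 6) received tamoxifen and lacked the recombinase, and Cre/+ OIL mice (n = 3) carried it and received oil. Tamoxifen was given at an age of 6 to 8 weeks, as 8 mg in 200 µl corn oil at 2 time points 48 h apart, and microglia were taken 4 weeks later. Cx3cr1CreERT2 occupies 1 Cx3cr1 allele, so both Cre/+ groups had 1 intact Cx3cr1 copy and wt TAM mice had 2.

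Per the labels, microglia of every group were sorted as CD11b+/CD45low cells. The study's methods add that YFP marked the cells taken from Cre/+ TAM mice but not those from mice without recombinase, so gate and group cannot be told apart in that comparison. RNA input was 0.4 to 2.5 ng per mouse, amplified and measured on 1 Affymetrix Mouse Gene 2.0 ST array each. Every value below is a log2 signal after RMA, a normalisation that puts all arrays on 1 scale. Signals of different genes come from different probes and were not compared with each other. Mice are named by the array number in their labels. The arrays fell into a lower range of animal numbers, with Cre/+ TAM mice 7 and 9, wt TAM mice 6, 10 and 11 and all Cre/+ OIL mice, and a higher range with the remaining 7.

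The 15 arrays had medians of 4.35 to 4.55 and correlated at r = 0.960 to 0.988 across clusters. The microglial transcription factor Sall1 was at 9.49 to 10.10 in Cre/+ TAM mice, 9.73 to 10.19 in wt TAM mice and 9.94 to 10.31 in Cre/+ OIL mice. Tgfbr2 averaged 8.14 ± 0.17 in Cre/+ TAM mice, 8.12 ± 0.12 in wt TAM mice and 8.25 ± 0.29 in Cre/+ OIL mice (SD, n = 6, 6 and 3). Its cluster summarises probes along the whole transcript, so it does not check the loss of exons 2 and 3. Cx3cr1 was at 10.74 to 11.41 in Cre/+ TAM mice, 11.39 to 11.82 in wt TAM mice and 11.15 to 11.53 in Cre/+ OIL mice.

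The Pde2a cluster held 27 probes on chromosome 7, plus strand, 101421691 to 101512829 (NM_001008548, build not given in the sources used here). RefSeq lists 5 promoter windows for Pde2a on GRCm38.p6, and both windows that hold the CAGAC core bound by Smad proteins, the transcription factors downstream of TGFβ receptors, are shown. The 250 bases before each start are printed, with every CAGAC in capitals, or GTCTG where it lies on the other strand.
Pde2a, chr7:101421441-101421690, plus strand: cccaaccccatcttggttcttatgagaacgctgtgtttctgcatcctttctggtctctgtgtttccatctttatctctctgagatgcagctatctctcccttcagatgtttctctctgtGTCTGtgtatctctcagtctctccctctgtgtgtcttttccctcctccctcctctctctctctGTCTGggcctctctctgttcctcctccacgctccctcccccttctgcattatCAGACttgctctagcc
Pde2a, chr7:101455812-101456061, plus strand: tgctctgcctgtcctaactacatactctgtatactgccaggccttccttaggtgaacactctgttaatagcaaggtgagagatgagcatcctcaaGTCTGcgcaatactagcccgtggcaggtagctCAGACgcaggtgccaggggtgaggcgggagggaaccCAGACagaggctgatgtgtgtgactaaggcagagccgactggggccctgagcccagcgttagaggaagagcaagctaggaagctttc
Each window held 3 matches, and the other 3 Pde2a windows held none. Of 32851 promoter windows of the same length in the table, 42.2% held at least 1 match and 2.32% held 3 or more. Promoter windows were found for 7 of the 9 genes, 19 windows in all. Of those outside Pde2a, 2 of 4 windows of Pde4b, 1 of 3 of Pde4a and 1 of 2 of Pde10a held CAGAC, and those of Pde1b, Pde4d and Pde8a held none. The half-site TGACG of the cAMP response element, searched on both strands, lay in no Pde2a window, in 1 window each of Pde4a, Pde4b and Pde8a, and in 17.8% of all windows. Its full form TGACGTCA, which contains the half-site, lay in 1.55% of all windows and in none of these genes. A match of letters is a description and not a bound site.

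Pde2a signal in Cre/+ TAM mice was 0.488 times that in wt TAM mice on the linear scale. Its log2 signal ran from 4.46 in mouse 9 over a median of 4.68 to 5.23 in mouse 16 of the Cre/+ TAM group, against 5.46 in mouse 6, a median of 5.80 and 6.05 in mouse 11 of the wt TAM group. No Cre/+ TAM mouse reached the lowest wt TAM mouse, and the gap between the groups was 0.23. The means were 4.76 ± 0.31 in Cre/+ TAM mice and 5.79 ± 0.21 in wt TAM mice (SD, n = 6 each). The log2 difference was -1.03 (SE 0.14, 95% interval -1.34 to -0.73). In a bulk sample, fewer cells that express Pde2a and less Pde2a RNA per cell cannot be told apart.

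**Figure D1:**
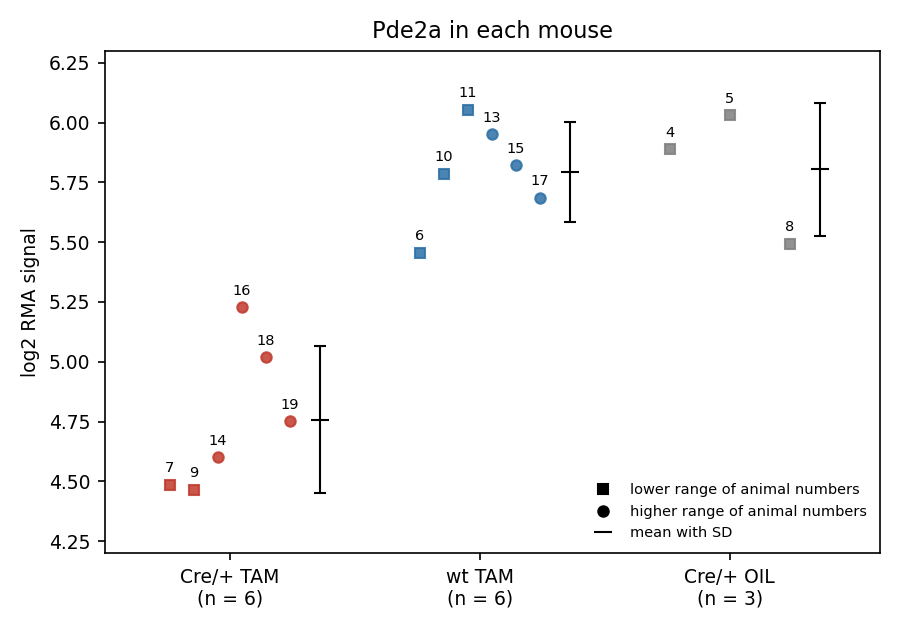
Log2 RMA signal of Pde2a (y axis) in each mouse, by group (x axis), with the array number above each point, squares for the lower and circles for the higher range of animal numbers, and the mean with SD beside each group. The 6 Cre/+ TAM mice lie between 4.46 and 5.23, below all wt TAM mice (5.46 to 6.05) and all Cre/+ OIL mice (5.49 to 6.03).

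Pde2a was the only one of the 9 genes whose Cre/+ TAM and wt TAM mice did not overlap. All Cre/+ TAM mice below all wt TAM mice was found for 0.148% of clusters, 48 in number. An adjusted p under 0.05 (limma, Benjamini-Hochberg over 32471 clusters) was found for 0.0246% of clusters, 8 in number. Only 5 clusters had a lower difference than Pde2a in this comparison. Since this comparison chose Pde2a, its place among all clusters is given as a description.

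Pde2a was also low relative to Cre/+ OIL mice, which had the recombinase and no tamoxifen. The Cre/+ OIL values were 5.89 in mouse 4, 6.03 in mouse 5 and 5.49 in mouse 8, and all 6 Cre/+ TAM mice lay below the lowest of them, with a gap of 0.27. The log2 difference between Cre/+ TAM mice and Cre/+ OIL mice was -1.05 (SE 0.18, 95% interval -1.42 to -0.67), a signal of 0.484 times. It did not pass the test across all clusters (limma, adjusted p = 0.119, unadjusted p = 1.7e-05). All Cre/+ OIL mice lay in the lower range of animal numbers and 4 of 6 Cre/+ TAM mice in the higher. With the range as a block the difference was -1.20 and passed (limma, adjusted p = 0.0358), where 21 clusters were called. That block was estimated from the Cre/+ TAM and wt TAM arrays, which chose Pde2a. In the lower range alone Pde2a was not called, where 84 clusters were. An exact two-sided permutation test over all mice of both groups gave p = 0.0119, the smallest that 6 mice against 3 can give. The Cre/+ TAM arrays are the same that chose Pde2a, so this comparison is not independent of the choice. No cluster passed the adjusted threshold without the block (0% of 32471, with 1897 at an unadjusted p under 0.05), and Cre/+ TAM mice all below Cre/+ OIL mice was found for 1.46% of clusters.

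Between the control groups no Pde2a difference was found. Mean signal was 5.79 ± 0.21 in wt TAM mice and 5.80 ± 0.28 in Cre/+ OIL mice (SD, n = 6 and 3), and the ranges overlapped. The log2 difference between wt TAM mice and Cre/+ OIL mice was -0.01, with a 95% interval of -0.39 to 0.36 (limma, adjusted p = 0.998; exact two-sided permutation p = 0.952). The interval does not exclude differences within these bounds. No cluster was called in this comparison (0% of 32471, with 1695 at an unadjusted p under 0.05).

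The low signal was present in both ranges of animal numbers. In the lower range Pde2a averaged 4.48 in 2 Cre/+ TAM mice and 5.76 in 3 wt TAM mice, a log2 difference of -1.29. In the higher range it averaged 4.90 in 4 Cre/+ TAM mice and 5.82 in 3 wt TAM mice, a log2 difference of -0.92. The ranges of the groups did not overlap in either. All Cre/+ TAM mice lay below all wt TAM mice in the comparison that chose Pde2a, so any split had to give this. The values in each range are a description. The difference between the 2 ranges, lower minus higher, was -0.37 (SE 0.27, 95% interval -0.94 to 0.20; limma, adjusted p = 0.923). None of the 9 genes was called for such a difference, where 0.0585% of all clusters were. Without Cre/+ TAM mice 7 and 9 the Pde2a log2 difference was -0.89.

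None of the other 8 phosphodiesterases rose or fell in Cre/+ TAM mice relative to wt TAM mice by the test across all clusters (limma, adjusted p = 0.882 to 0.986), and 0 of 8 had an unadjusted p under 0.05. Over all clusters 1894 of 32471 had such a p in this comparison, the background for the gene lists below too. Of the 8, 5 had a positive and 3 a negative log2 difference, with a median of 0.06 beside -0.02 over all clusters. The differences ran from -0.21 for Pde8a to 0.19 for Pde4b. The widest 95% bounds were -0.51 and 0.44, that is 0.701 to 1.35 times the wt TAM signal, so shifts within those bounds are not excluded. Group means of Pde4d (4.15 to 4.24) and Pde10a (4.06 to 4.26) lay below the lowest array median, 4.35. At such low signals a fall could go unseen.

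**Figure D2:**
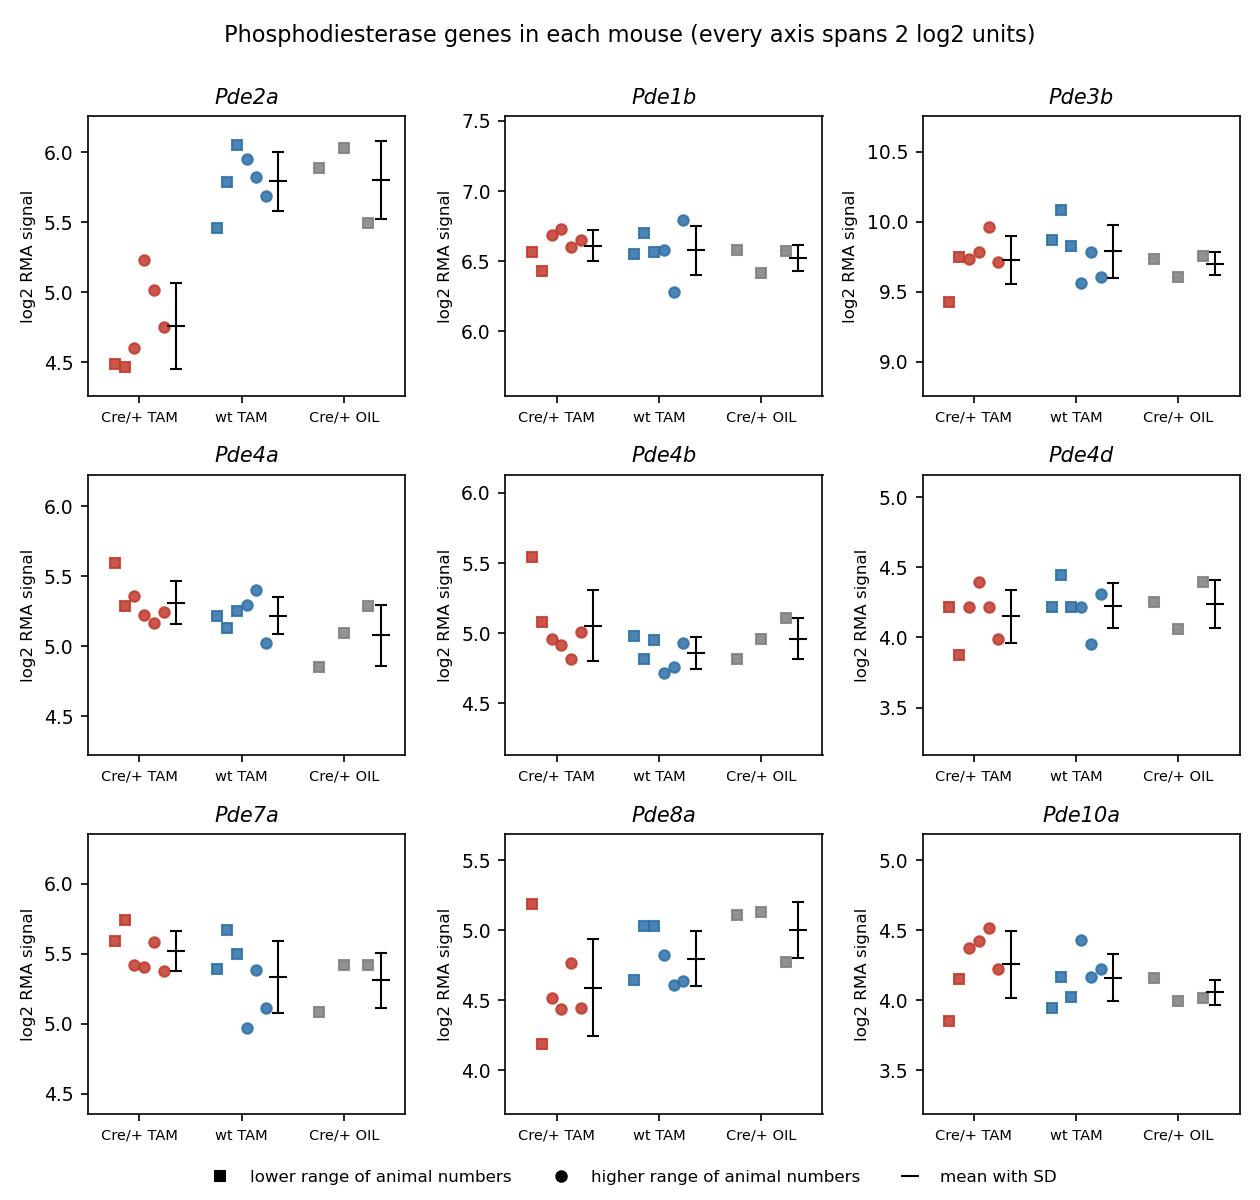
Log2 RMA signal (y axes, each spanning the same width) of the 9 phosphodiesterase genes in each mouse, by group (x axes), with squares and circles for the lower and higher ranges of animal numbers and the mean with SD beside each group. Cre/+ TAM mice are apart from wt TAM mice for Pde2a, and overlap them for the other 8 genes.

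Among the enzymes that, like Pde2a, also act on or respond to cGMP, the groups overlapped. Pde3b, a cGMP-inhibited enzyme that also acts in insulin signalling, ran from 9.42 over a median of 9.74 to 9.96 in Cre/+ TAM mice, 9.57 over 9.81 to 10.09 in wt TAM mice, and was 9.74, 9.60 and 9.76 in the Cre/+ OIL mice. The Pde3b log2 difference between Cre/+ TAM and wt TAM mice was -0.06 (95% interval -0.28 to 0.16). It was -0.34 in the lower and 0.15 in the higher range of animal numbers, and the difference between the ranges, -0.49, did not pass the test across all clusters (limma, adjusted p = 0.755, unadjusted p = 0.030). Pde10a, best known from striatal neurons, ran from 3.85 over 4.30 to 4.52 in Cre/+ TAM mice, against 3.95 over 4.17 to 4.43 in wt TAM mice. Its log2 difference was 0.10 (95% interval -0.14 to 0.34).

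Pde1b, which couples calcium to the breakdown of both messengers, ran from 6.43 over a median of 6.63 to 6.73 in Cre/+ TAM mice and from 6.28 over 6.57 to 6.79 in wt TAM mice. The Cre/+ TAM values lay within the wt TAM range in all 6 mice. The Pde1b log2 difference between Cre/+ TAM and wt TAM mice was 0.03 (95% interval -0.17 to 0.23), the smallest in size of the 9.

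The Pde4 genes encode the cAMP-specific enzymes that rolipram inhibits, and Pde4b is the form known to act in the inflammatory response of macrophages. Pde4b ran from 4.82 over a median of 4.98 to 5.54 in Cre/+ TAM mice, against 4.71 over 4.87 to 4.98 in wt TAM mice, and was 4.81, 4.96 and 5.11 in the Cre/+ OIL mice. Cre/+ TAM mouse 7 gave the value of 5.54 and the other 5 reached at most 5.08. The log2 difference of Pde4b between Cre/+ TAM and wt TAM mice was 0.19 (95% interval -0.04 to 0.43), and 0.10 without mouse 7. Pde4a had its highest Cre/+ TAM value, 5.59, in the same mouse, where the other 5 ran from 5.16 to 5.36, against 5.02 to 5.40 in wt TAM mice. Pde4a differed by 0.09 (95% interval -0.12 to 0.31) and Pde4d by -0.08 (95% interval -0.30 to 0.15). Pde4d had an identical value, 4.22 after rounding, on 6 of the 15 arrays, the most repeated value among the 9 genes.

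Pde7a and Pde8a encode cAMP-specific enzymes of high affinity. Pde7a ran from 5.38 over a median of 5.50 to 5.74 in Cre/+ TAM mice, against 4.97 over 5.39 to 5.67 in wt TAM mice, and its log2 difference was 0.18 (95% interval -0.07 to 0.44). Pde8a was 4.19 in mouse 9 and 5.18 in mouse 7 of the Cre/+ TAM group, the widest spread of the 9 genes in that group, with a median of 4.48, against 4.61 over 4.73 to 5.03 in wt TAM mice. The Pde8a log2 difference between Cre/+ TAM and wt TAM mice was -0.21 (95% interval -0.51 to 0.10).

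Relative to Cre/+ OIL mice, Pde8a came nearest to a change among the other 8 genes. The Cre/+ OIL values were 5.11, 5.13 and 4.77, and 5 of 6 Cre/+ TAM mice lay below all of them while mouse 7 lay above. The log2 difference was -0.41 (95% interval -0.79 to -0.04; limma, adjusted p = 0.845, unadjusted p = 0.033; exact two-sided permutation p = 0.107), and -0.53 without mouse 7 (adjusted p = 0.606). Pde8a was also lower in wt TAM mice than in Cre/+ OIL mice by point estimate, at -0.21 (95% interval -0.59 to 0.17; adjusted p = 0.949). The remaining 7 genes differed between Cre/+ TAM and Cre/+ OIL mice by -0.09 (Pde4d) to 0.23 (Pde4a), and none was called. The 3 comparisons share arrays, so their values stand side by side and are not independent.

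**Figure D3:**
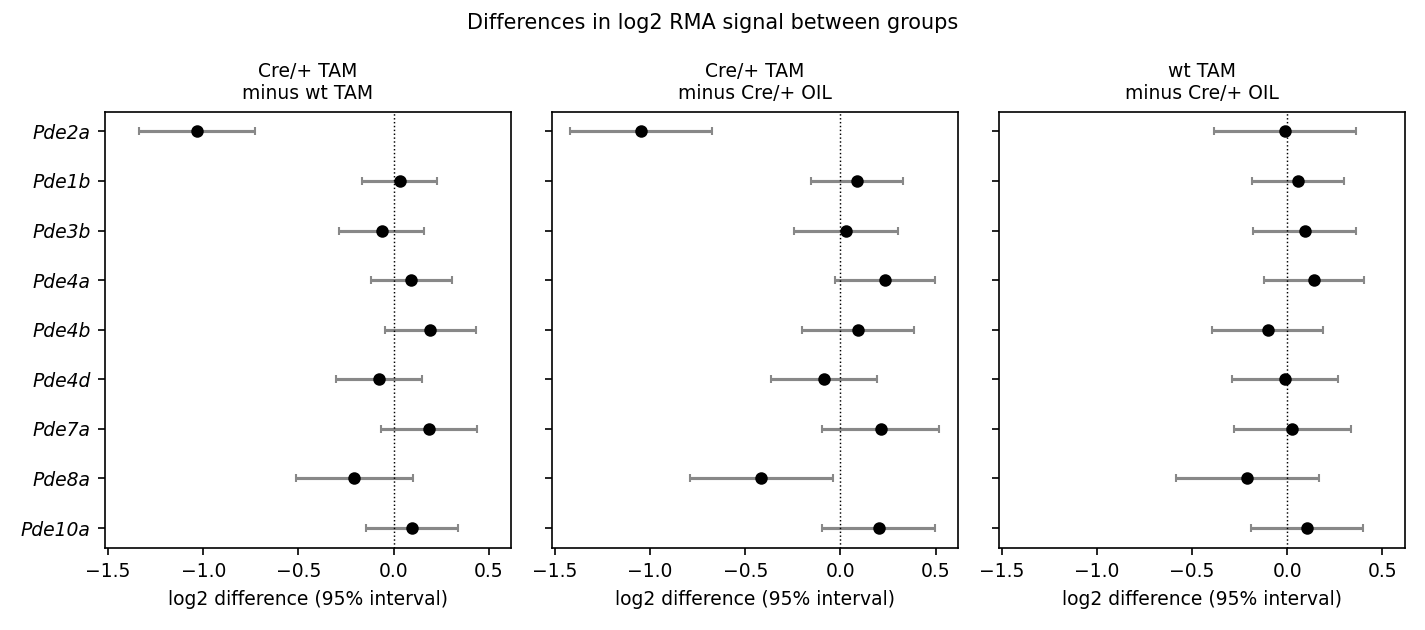
Log2 differences (x axes) with 95% intervals (bars) of the 9 genes (y axis) for Cre/+ TAM minus wt TAM, Cre/+ TAM minus Cre/+ OIL and wt TAM minus Cre/+ OIL, dotted lines at 0. Pde2a lies at -1.03 and -1.05 in the comparisons of Cre/+ TAM mice and at -0.01 between the control groups, while the other genes lie between -0.41 and 0.23.

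The other 15 cyclic nucleotide phosphodiesterase genes on the array had no call in any comparison. Of them, 5 had a higher and 10 a lower signal in Cre/+ TAM than in wt TAM mice (median log2 difference -0.05, 0 of 15 at an unadjusted p under 0.05). Pde7b, a cAMP-specific enzyme, had the highest difference, 0.34, and Pde6h, the inhibitory subunit of the cone photoreceptor enzyme, the lowest, -0.16. Pde7b read 5.68 in Cre/+ TAM mouse 7 and 3.26 to 3.94 in the other 5, against 3.28 to 3.68 in wt TAM mice and 3.23 to 3.53 in Cre/+ OIL mice.

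The rest of the cyclic nucleotide pathway had no call either (61 genes in 4 lists, limma, 3 at an unadjusted p under 0.05 in Cre/+ TAM against wt TAM mice, median log2 difference 0.02). Among 20 cyclases, 6 were higher and 14 lower, with Adcy7, an adenylyl cyclase of blood and myeloid cells, at 0.22 and Adcy6 at -0.16. Among 15 effectors, 10 were higher and 5 lower, with the protein kinase A catalytic subunit Prkacb at 0.20 and the cAMP-activated exchange factor Rapgef3 (Epac1) at -0.19. Neither list had a called gene.

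Among 16 receptors, G proteins and transporters, 10 were higher and 6 lower. Ptger4, a prostaglandin E2 receptor that raises cAMP, had a log2 difference of 0.61, with 4.66 over a median of 4.95 to 6.49 in Cre/+ TAM mice and 4.32 over 4.56 to 5.20 in wt TAM mice. Its high values were those of mice 7 (6.49) and 9 (6.03). Its groups overlapped, and no gene of the list passed the test across all clusters (limma, lowest adjusted p = 0.748).

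Genes that cAMP signalling is known to induce were read as a list of 10, of which 8 were higher and 2 lower in Cre/+ TAM than in wt TAM mice (median log2 difference 0.09, none called, 0 at an unadjusted p under 0.05). Relative to Cre/+ OIL mice all 10 were higher by point estimate (median 0.39), none called and 1 at an unadjusted p under 0.05. Between the control groups, 7 were higher and 3 lower in wt TAM than in Cre/+ OIL mice (median 0.18, none called). Dusp1, a phosphatase of MAP kinases, ran from 9.92 over a median of 10.16 to 10.68 in Cre/+ TAM mice and had a median of 9.82 and a highest value of 10.69 in wt TAM mice, and read 9.04, 8.87 and 10.75 in the Cre/+ OIL mice. Sik1, a cAMP-induced kinase, ran from 5.31 over 5.53 to 6.93 in Cre/+ TAM mice and 4.93 over 5.15 to 5.93 in wt TAM mice. cAMP itself was not measured.

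**Figure D4:**
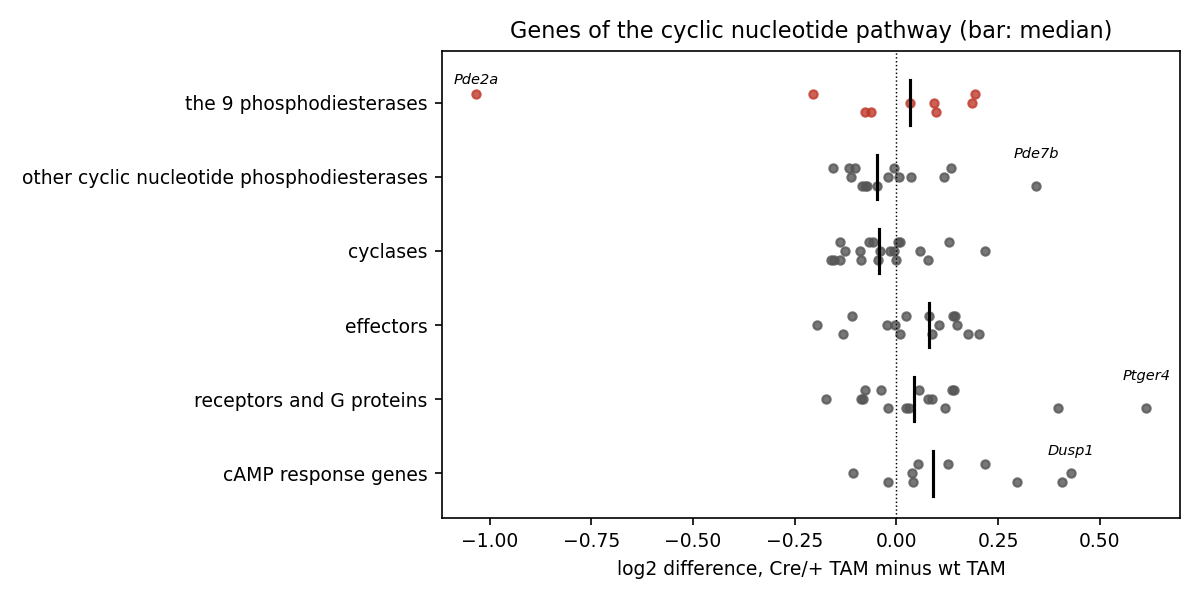
Log2 differences in signal, Cre/+ TAM minus wt TAM (x axis), of the 9 phosphodiesterase genes and of 5 further lists of the cyclic nucleotide pathway (y axis), 1 point per gene, with a bar at each list's median. Pde2a lies at -1.03, and the remaining genes lie between -0.21 (Pde8a) and 0.61 (Ptger4).

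Markers of other cells were read beside these values, as 11 lists with 79 genes on the array, of which none was called in any comparison (8, 8 and 1 at an unadjusted p under 0.05 in Cre/+ TAM against wt TAM, Cre/+ TAM against Cre/+ OIL and wt TAM against Cre/+ OIL). Over all 32471 clusters these counts were 1894, 1897 and 1695. The microglia list had a mean of 9.90 to 10.35 in Cre/+ TAM mice, 9.97 to 10.39 in wt TAM mice and 10.11 to 10.41 in Cre/+ OIL mice. The list of border-associated macrophages, cells of the brain surface and vessels, had 7 of 8 genes higher by point estimate in Cre/+ TAM than in wt TAM mice. Its mean was 4.92 to 7.39 in Cre/+ TAM mice, 4.24 to 4.57 in wt TAM mice and 4.09 to 4.37 in Cre/+ OIL mice, so that all Cre/+ TAM mice lay above both control groups, which overlapped. Ms4a7 had the highest log2 difference between Cre/+ TAM and wt TAM mice, 3.27, followed by Pf4 (2.77) and Mrc1 (1.91), and Lyve1 the lowest, -0.01. The study reports Ms4a7, Pf4 and Mrc1 as raised in Tgfbr2-deficient microglia. Whether microglia or other cells gave these signals was not tested. The other 5 markers, split off after their values were seen, had a mean of 4.38 to 5.79 in Cre/+ TAM mice and 4.23 to 4.57 in wt TAM mice, with overlap, and 4.04 to 4.26 in Cre/+ OIL mice. The highest means of the full list were those of Cre/+ TAM mice 7 (7.39) and 9 (5.95). Both mice also had the lowest Pde2a, 4.49 and 4.46. In mouse 9, Ms4a7 (8.48), Pf4 (8.56), Mrc1 (8.30) and Cd163 (4.37) lay above all wt TAM mice. Its Lyve1 (4.67), F13a1 (4.30), Cbr2 (4.25) and Folr2 (4.69) lay within the wt TAM range. Mice 7 and 9 are also the only Cre/+ TAM mice of the lower range of animal numbers. Among Cre/+ TAM mice, high marker means and that range cannot be told apart. The part of this list in the Pde2a, Pde4b, Pde7b and Ptger4 values was not tested. Without mice 7 and 9 the Pde2a log2 difference was -0.89 and that of Pde4b 0.07.

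Endothelial cells are a known site of Pde2a expression. The list of 10 endothelial markers had a mean of 3.95 to 4.19 in Cre/+ TAM mice, 4.09 to 4.34 in wt TAM mice and 4.04 to 4.09 in Cre/+ OIL mice, with 3 genes higher and 7 lower in Cre/+ TAM than in wt TAM mice and a median log2 difference of -0.04. Relative to Cre/+ OIL mice 7 of the 10 were higher and 3 lower (median 0.10). Only Kdr, Cdh5 and Pecam1 had group means above the array medians of 4.35 to 4.55, and the other markers of the list lay below. Pecam1 (CD31), which myeloid cells express too, was the lowest of the list in both comparisons, at -0.66 and -0.87. All 6 astrocyte markers were lower by point estimate in Cre/+ TAM than in wt TAM mice (median -0.20), with list means of 4.33 to 4.84 in Cre/+ TAM mice and 4.70 to 4.89 in wt TAM mice. Relative to Cre/+ OIL mice 2 astrocyte markers were higher and 4 lower (median -0.14). Between the control groups 5 were higher and 1 lower in wt TAM mice. The part of either list in the Pde2a values was not tested.

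The lists of mural cells, neurons, oligodendrocytes, and T and NK cells had median log2 differences of 0.02, -0.0047, -0.02 and 0.01 between Cre/+ TAM and wt TAM mice. Those of monocytes, neutrophils and B cells had medians of -0.10, -0.22 and -0.17. The neutrophil list was uneven between mice, with means of 3.66 to 4.43 in Cre/+ TAM mice, 3.71 to 6.15 in wt TAM mice and 3.56 to 6.88 in Cre/+ OIL mice.

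The genes whose signal over the 15 arrays was most like that of Pde2a, among 15572 symbols with above-median signal, were Gprasp2 (Pearson r = 0.938), Rcbtb2 (0.911), Ppm1l (0.908), Ptger3 (0.872) and Pecam1 (0.853). The arrays are those of the same 3 groups, so these values hold the difference between groups and are a description. Gprasp2, a sorting protein for G protein-coupled receptors, ran from 4.35 over a median of 5.33 to 5.54 in Cre/+ TAM mice, against 5.84 over 6.10 to 6.41 in wt TAM mice, and was between 5.95 and 6.42 in the Cre/+ OIL mice. Ptger3, a prostaglandin E2 receptor that lowers cAMP, ran from 3.91 over 4.56 to 4.84 in Cre/+ TAM mice, against 4.94 over 5.34 to 5.52 in wt TAM mice, and was 5.19, 5.04 and 5.05 in the Cre/+ OIL mice. For Gprasp2 and Ptger3 all Cre/+ TAM mice lay below all mice of both control groups.

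Rcbtb2, a protein with RCC1 and BTB domains, ran from 7.12 over a median of 7.63 to 7.75 in Cre/+ TAM mice and 7.70 over 8.05 to 8.16 in wt TAM mice. Ppm1l, a serine and threonine phosphatase, ran from 4.32 over 4.73 to 5.01 in Cre/+ TAM mice and 5.12 over 5.26 to 5.55 in wt TAM mice. For Ppm1l all Cre/+ TAM mice lay below all control mice. For Rcbtb2 they overlapped the wt TAM mice and lay below the Cre/+ OIL mice by a gap of only 0.0096. By deviations from the group means, which leave out the difference between groups, the 5 most like genes were others, Gm16416 (0.887), Gm11614 (0.865), Gm20300 (0.858), Ddx59 (0.851) and Ctf1 (0.843). None of the 5 was among those most like Pde2a over all arrays.

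**Figure D5:**
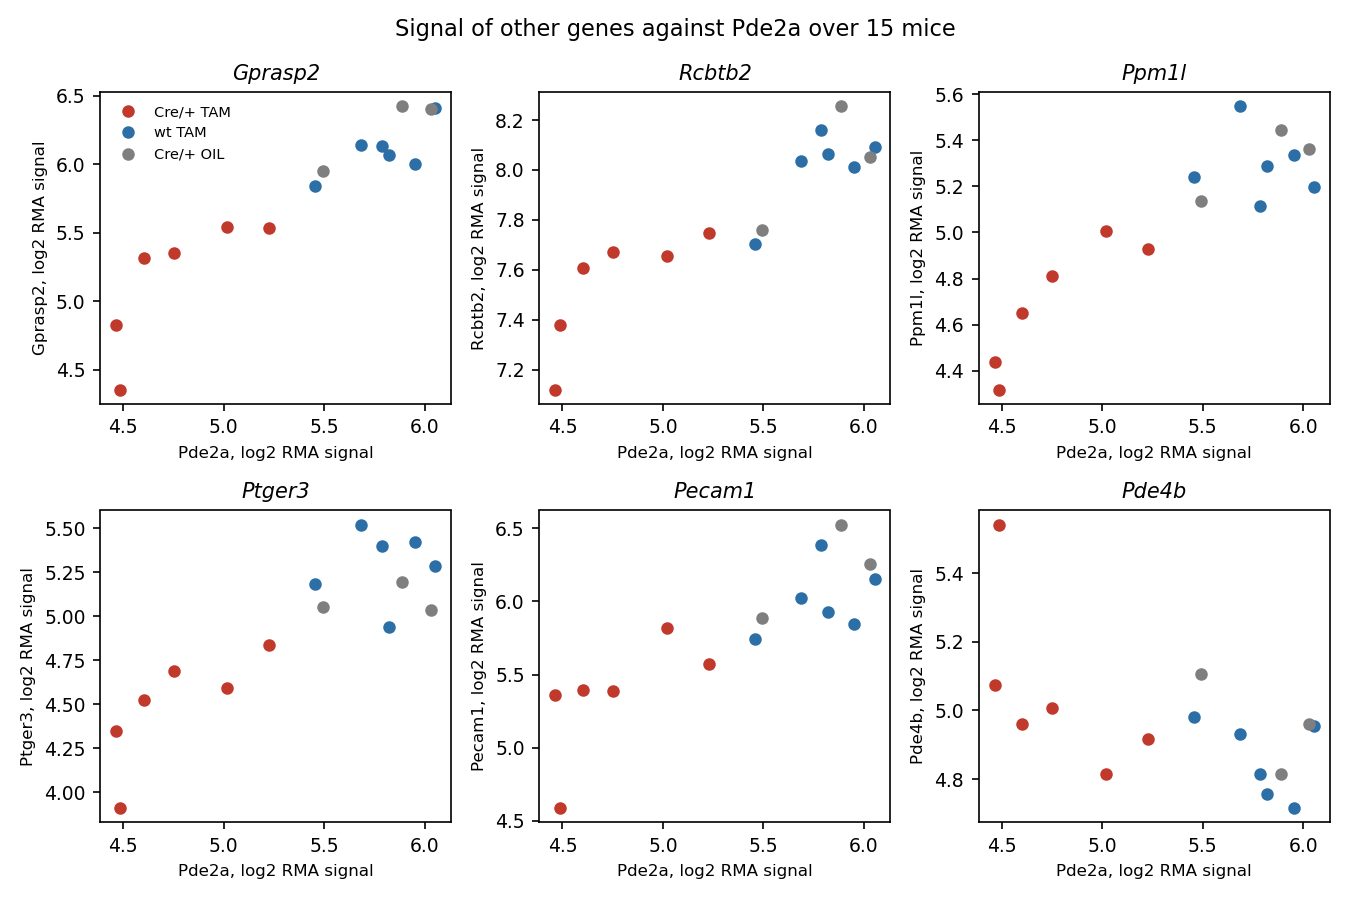
Log2 RMA signal of Gprasp2, Rcbtb2, Ppm1l, Ptger3, Pecam1 and Pde4b (y axes) against that of Pde2a (x axes), 1 point per mouse, coloured by group. In the first 5 panels the Cre/+ TAM mice lie at the low end of both axes, and in the Pde4b panel Cre/+ TAM mouse 7 (5.54) lies above all others.

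Among the 6 other members with above-median signal, Pde8a was most like Pde2a over the 15 arrays (r = 0.502) and Pde4b least (r = -0.596), with Pde3b at 0.161, Pde1b at -0.136, Pde7a at -0.498 and Pde4a at -0.514. By deviations from the group means the values were 0.206 for Pde8a and -0.593 for Pde4b. Both Pde4b values include Cre/+ TAM mouse 7, which stood apart for Pde4b (5.54) and had a Pde2a of 4.49. The correlations were not computed without this mouse. Pde4d and Pde10a were below the median signal and were not ranked.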

How the data were processed

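RNA of sorted microglia from 15 mice was measured on 1 Affymetrix Mouse Gene 2.0 ST array each. The authors deposited log2 signals after RMA (background correction, quantile normalisation and a summary over probes) for 34390 transcript clusters, of which 1919 without a gene symbol were left out. A second deposited table of log2 values (41345 probe sets, differing by at most 0.005 where shared) served as an alternative. The software version and genome build were not given in the sources used here. Further deposited sheets hold the authors' own fold changes and p-values and were not used. Array data give no counts, so the number of arrays limits the precision.

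Groups were taken from the labels. 1 model with 3 groups was fitted with limma 3.58.1 (lmFit, eBayes; R 4.3.3), and p-values were adjusted by Benjamini-Hochberg over 32471 clusters. A cluster was called at an adjusted p under 0.05. For each member, the difference in group means from Cre/+ OIL mice was also tested by exact two-sided permutation over mice (Python 3.11.15). The difference between ranges of animal numbers was fitted as an interaction on the TAM arrays. Simulated arrays with known changes were used to test the fit. P-values set a difference between groups against the spread between mice.

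The members and gene lists were chosen with earlier results of these data known. Named were all 9 members, per pathway list the called genes (at most 4) or else the 2 with the largest absolute difference between Cre/+ TAM and wt TAM mice, the 5 genes most like Pde2a by each measure, and markers as list means, singly where highest or lowest of their list. 1 gene that this rule names is not reported here. For genes with several clusters, the one with the highest mean was used. Promoter sequences were those of RefSeq on GRCm38.p6, matched by symbol for 7 of 9 members. Alternatives covered centring, normalisation, filters, fit settings, arrays left out and the unpaired t-test of the methods.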

Additional observations from a re-analysis of the deposited data

Results flagged for a closer look

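Single mice stood apart from their group of 6 in 4 of 38 group and gene combinations examined (9 members and 10 genes of the pathway lists, in Cre/+ TAM and wt TAM mice). Chance alone marks about 1 in 20 such groups. Pde4b read 5.54 in Cre/+ TAM mouse 7, where the other 5 ran from 4.82 to 5.08. Pde7b read 5.68 in the same mouse, where the others ran from 3.26 to 3.94. Sik1 read 6.93 in the same mouse, where the others ran from 5.31 to 5.83. Prkacb read 6.38 in wt TAM mouse 13, where the others ran from 6.73 to 6.87. Mouse 7 also had the highest mean of the border-associated macrophage markers (7.39), and their part in these values was not tested. Pde2a had no such value in either group.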

How the results depend on the processing

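The Pde2a log2 difference between Cre/+ TAM and wt TAM mice stayed negative under all 27 alternatives, at -1.13 to -0.98 with 1 mouse left out and at -1.29 to -0.89 under the other 15 settings. Since every Cre/+ TAM mouse lay below every wt TAM mouse, leaving mice out could not change this sign. This comparison chose Pde2a, so these values are a description. Against Cre/+ OIL mice the Pde2a difference was -1.20 to -0.93 with 1 mouse left out, and no mouse left out brought it past the threshold (limma, adjusted p = 0.0533 to 0.453). With the range of animal numbers as a block it was -1.20 and passed (adjusted p = 0.0358), which made 1 member called where the fit without the block had 0. With both control groups together it was -1.04, also 1 member called. Both settings draw on the wt TAM arrays that chose Pde2a, the first to estimate the block. They were the 2 of 23 alternatives in which Pde2a passed, so it was not called in the lower range alone. The cause of either change was not tested. Without the 3 arrays with neg in their titles, which the labels do not explain, the Pde2a difference from Cre/+ OIL mice was -0.73 with 1 Cre/+ OIL mouse left. Between wt TAM and Cre/+ OIL mice the Pde2a difference ran from -0.17 to 0.25 and changed sign in 6 of 22 alternatives.

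The other 8 genes had no call in any of 570 values over the 3 comparisons (lowest adjusted p 0.371), and 32 of these values had another sign than the main one. The methods' t-test called 0 of 8 in Cre/+ TAM against wt TAM mice, before and after Benjamini-Hochberg. Against Cre/+ OIL mice it had 1 of 9 (Pde2a) before and 0 after. The count of clusters called in Cre/+ TAM against wt TAM mice, 8, moved to 51 with the range as a block, 87 in the lower and 3 in the higher range alone, 16 without Cre/+ TAM mice 7 and 9, 13 in the second table, 30 with the controls together, 3 without the arrays with neg and 1 by the methods' t-test, and to between 2 and 15 with 1 mouse left out. Against Cre/+ OIL mice the count was 21 with the block and 84 in the lower range alone, where the main fit had 0.

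The alternative of another cluster of the same symbol was not run, as each member had 1. The study's controls were littermates, but the labels name no litter, so no paired analysis was run. The sort gates in the methods and some markers of border-associated macrophages moved with the groups, and the precision is limited by 6, 6 and 3 arrays.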
